A study of Schizosaccharomyces pombe with 12 samples.

Results

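The genes described here lie in the subtelomeres of chromosome II of the fission yeast Schizosaccharomyces pombe. They are the 57 rows of a table of 6986 genes whose identifiers begin with 1 of 5 cosmid names, SPBC1348, SPBPB21E7, SPBPB10D8, SPBPB2B2 or SPBCPT2R1. All 57 were found by identifier in the RefSeq annotation of assembly ASM294v3, which places 31 of them at the left end of the chromosome and 26 at the right end. From the left telomere inwards the order is SPBC1348 (14 rows), SPBPB21E7 (10 rows) and SPBPB10D8 (7 rows), and from the right telomere inwards it is SPBCPT2R1 (9 rows) and SPBPB2B2 (17 rows). The annotation counts 49 of the rows as protein-coding genes and 8 as pseudogenes.

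Poly(A)+ RNA was sequenced from 12 log phase cultures grown vegetatively in YES, a rich medium, at 30 °C, 3 of each of 4 genotypes. The triple mutant is labelled as carrying asp1-H397A, ssu72-C13S and aps1∆ together. The asp1-H397A strain carries only the allele of asp1, a bifunctional inositol pyrophosphate kinase and pyrophosphatase, whose H397A change inactivates the pyrophosphatase. In ssu72-C13S only the protein phosphatase Ssu72, which belongs to the cleavage and polyadenylation factor and removes phosphates from the carboxy-terminal domain of RNA polymerase II, is altered, at its catalytic cysteine. The deleted gene aps1 encodes another inositol pyrophosphate pyrophosphatase, and no strain with that deletion alone was analysed here. WT carries none of these alleles. Each genotype is 1 strain, and the labels do not say that its replicates are separate isolates, so p-values measure only the spread between these samples, which may be technical. Because whole cultures were measured, fewer cells with a transcript and less of it per cell cannot be told apart.

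Subtelomeres are the stretches of gene-bearing DNA next to the telomere repeats. In fission yeast they are packed in part into heterochromatin, in which the methyltransferase Clr4 marks histone H3 and Swi6 binds the mark, and the genes inside it are transcribed little during growth in rich medium. The outermost stretches are near copies of each other at several chromosome ends and include the RecQ-type helicase genes of the tlh family, while the inner stretches hold single-copy genes for transport and for carbohydrate and amino acid metabolism, among them the genes of galactose use. The pho1 gene, which encodes the secreted acid phosphatase of the phosphate regulon, lies inward of SPBPB2B2 on the same chromosome arm, with 8 annotated genes between it and SPBPB2B2.01. With pho84, a phosphate transporter, and tgp1, a glycerophosphodiester transporter, it is activated by the transcription factor Pho7 when phosphate is short.

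SPBPB2B2.06c, the member with the most counts in the triple mutant, was examined for the binding motif of that factor. In the annotation it is a phosphoprotein phosphatase and an extracellular 5′-nucleotidase of the NT5E family. The 250 bases before its annotated transcript start, from the minus strand of ASM294v3 and written in the direction of the gene, are printed with the Pho7 motif in capitals, and below them are the 30-base windows around the motifs of pho1 and tgp1 for comparison.
SPBPB2B2.06c, 250 bases: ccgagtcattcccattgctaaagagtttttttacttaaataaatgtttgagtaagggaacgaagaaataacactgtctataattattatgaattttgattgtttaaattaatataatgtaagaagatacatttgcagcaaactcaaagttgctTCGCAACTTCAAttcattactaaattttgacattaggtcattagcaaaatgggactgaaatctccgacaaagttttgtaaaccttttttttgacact
pho1, first site: ggggaatagTCGCTGCTTGAAacatccgga
pho1, second site: tagttttatTCGGAAATTAAAaacaagttt
tgp1: ctttttcctTCGGACATTCAAatcagtaag
The motif of SPBPB2B2.06c starts 97 bases before the transcript start, those of pho1 start 187 and 155 bases before it, and that of tgp1 starts 192 bases before it. Both strands of every window of 250 bases were searched. The motif was present in 1.64% of the windows of 12605 annotated genes, in 1.94% of those of 5112 protein-coding genes and in 6 of the 57 members (10.5%). These 6 are fewer separate elements, because SPBC1348.03, SPBPB2B2.17c and SPBPB2B2.18 share 1 sequence, and SPBC1348.06c and SPBPB2B2.15 share another. All members named in the previous sentence had too few counts to be tested. Of them, only SPBPB2B2.18 carries the motif in the direction of the gene. The window of pho84 held no match. A match describes the letters only.

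A second sequence is shared by 4 members, 2 of which had 0 counts in every library. The 4 transporter genes SPBPB10D8.04c, SPBPB10D8.05c, SPBPB10D8.06c and SPBPB10D8.07c stand in tandem, and their coding sequences of 1140 bases are identical, with 0 mismatches in each pair. The first 60 bases of any of them read as follows, with the start codon at the left.
SPBPB10D8.04c to SPBPB10D8.07c: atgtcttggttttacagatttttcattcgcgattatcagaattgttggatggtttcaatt
Over the 12 libraries, 439 counts were assigned to SPBPB10D8.04c and 20 to SPBPB10D8.07c, and 0 each to SPBPB10D8.05c and SPBPB10D8.06c. The annotated transcripts of SPBPB10D8.04c and SPBPB10D8.07c are longer than the shared part. Even so, 81.2% of the 100-base windows of SPBPB10D8.04c and 100% of those of SPBPB10D8.07c occur elsewhere in the genome. Reads from the shared part cannot be told apart.

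The libraries held 23115806 to 29124916 counts assigned to genes, so a count of 0 allows a level of up to 0.0915 CPM in WT replicate 1 to 0.148 CPM in triple mutant replicate 3, counting error only. CPM is a gene's count as a share of its library, in parts per 1000000, and in the text it is scaled by edgeR's TMM factors. As a check of the labels, aps1 averaged 38.9 ± 2.08 CPM in the triple mutant, 106 ± 3.28 in asp1-H397A, 77.9 ± 1.30 in ssu72-C13S and 112.5 ± 9.20 in WT (SD, n = 3 each), lowest in every triple mutant library but not at 0, and the labels do not say how much of the gene was deleted. A point mutation cannot be checked from counts. asp1-H397A replicate 3 and triple mutant replicate 1 stood apart from the other replicates of their genotypes, since a chi-square statistic averaged over genes was 37.1 to 53.8 for pairs with these libraries and 3.17 to 11.8 for all other pairs of replicates. Of the members tested, asp1-H397A replicate 3 was the highest library of its genotype for 20 of 29 (69.0%), against 47.4% of all genes tested, and triple mutant replicate 1 for 15 of 29 (51.7%), against 45.6%. Where leaving out these 2 libraries together changes a call against WT, that is said beside the member. WT replicate 3 did not stand apart by the chi-square statistic. For the members, however, WT replicate 3 was the highest WT library in 17 of 29 (58.6%), against 32.6% of all genes tested. With every library in the fit, each comparison against WT included WT replicate 3.

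Of the 57 members, 29 had counts high enough to test and 28 did not. The counts of calls that follow concern only those 29, which passed the filter because at least 3 libraries reached it. SPBC1348.11 reached it in ssu72-C13S alone and SPBCPT2R1.07c in the triple mutant alone, the genotypes where they are high, and 6 more in 2 or 3 genotypes only. SPBC1348.11 and SPBCPT2R1.07c are nevertheless included in the counts of calls. The counts therefore describe the tested members and support nothing about the set. Comparisons were made with the quasi-likelihood test of edgeR, and p was adjusted after Benjamini and Hochberg over 6189 genes, with a threshold of 0.05. In the triple mutant against WT 18 members passed, 5 higher and 13 lower, or 62.1% of those tested, against 51.9% of all genes tested (26.2% higher and 25.7% lower). In asp1-H397A against WT 18 passed, 7 higher and 11 lower (62.1%), against 44.4% of all genes (25.8% higher and 18.6% lower). In ssu72-C13S against WT 16 passed, 9 higher and 7 lower (55.2%), against 54.7% of all genes (25.5% higher and 29.1% lower). With so many genes called the count of members says little by itself: the share in ssu72-C13S was near that of all genes, and those in the triple mutant and asp1-H397A were somewhat above it. The median log2 fold change of the 29 was -0.275 in the triple mutant, -0.625 in asp1-H397A and 0.193 in ssu72-C13S, against -0.009, -0.001 and -0.040 over all genes tested. Without the 2 libraries that stood apart, 20 members passed in the triple mutant (5 higher and 15 lower, with a background of 70.4% of all genes), 22 in asp1-H397A (7 and 15, background 73.2%) and 22 in ssu72-C13S (13 and 9, background 72.6%), so that no share stood more than a few points from that of all genes.

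The triple mutant was also set against each single mutant. Against asp1-H397A 16 members passed, 8 higher and 8 lower (55.2%), with a background of 36.8% of all genes. Against ssu72-C13S 17 passed, 5 higher and 12 lower (58.6%), with a background of 56.3%. A departure from additivity was computed as the log2 value of the triple mutant against WT less those of asp1-H397A and ssu72-C13S, and it holds any effect of the aps1 deletion. It passed for 17 members, 9 above 0 and 8 below (58.6%), with a background of 41.9% of all genes (20.1% above and 21.8% below). Without the 2 libraries that stood apart, the members' share was 51.7% against asp1-H397A (background 53.8%), 72.4% against ssu72-C13S (70.4%) and 62.1% for the departure (60.4%), so the excess over all genes seen with every library was not found without them. Every tested member stands in chromosome order in the plot of log2 fold changes. At the left end 0 of 15 tested members were higher in the triple mutant than in WT and 8 were lower, and at the right end 5 of 14 were higher and 5 lower. In asp1-H397A the left end had 2 higher and 5 lower, and the right end 5 higher and 6 lower. In ssu72-C13S the left end had 2 higher and 5 lower, and the right end 7 higher and 2 lower. Of all genes tested 26.2%, 25.8% and 25.5% were called higher in the triple mutant, asp1-H397A and ssu72-C13S against WT, and 25.7%, 18.6% and 29.1% lower. The members of 1 end are too few to set against such shares. The difference between the ends was not tested.

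**Figure D1:**
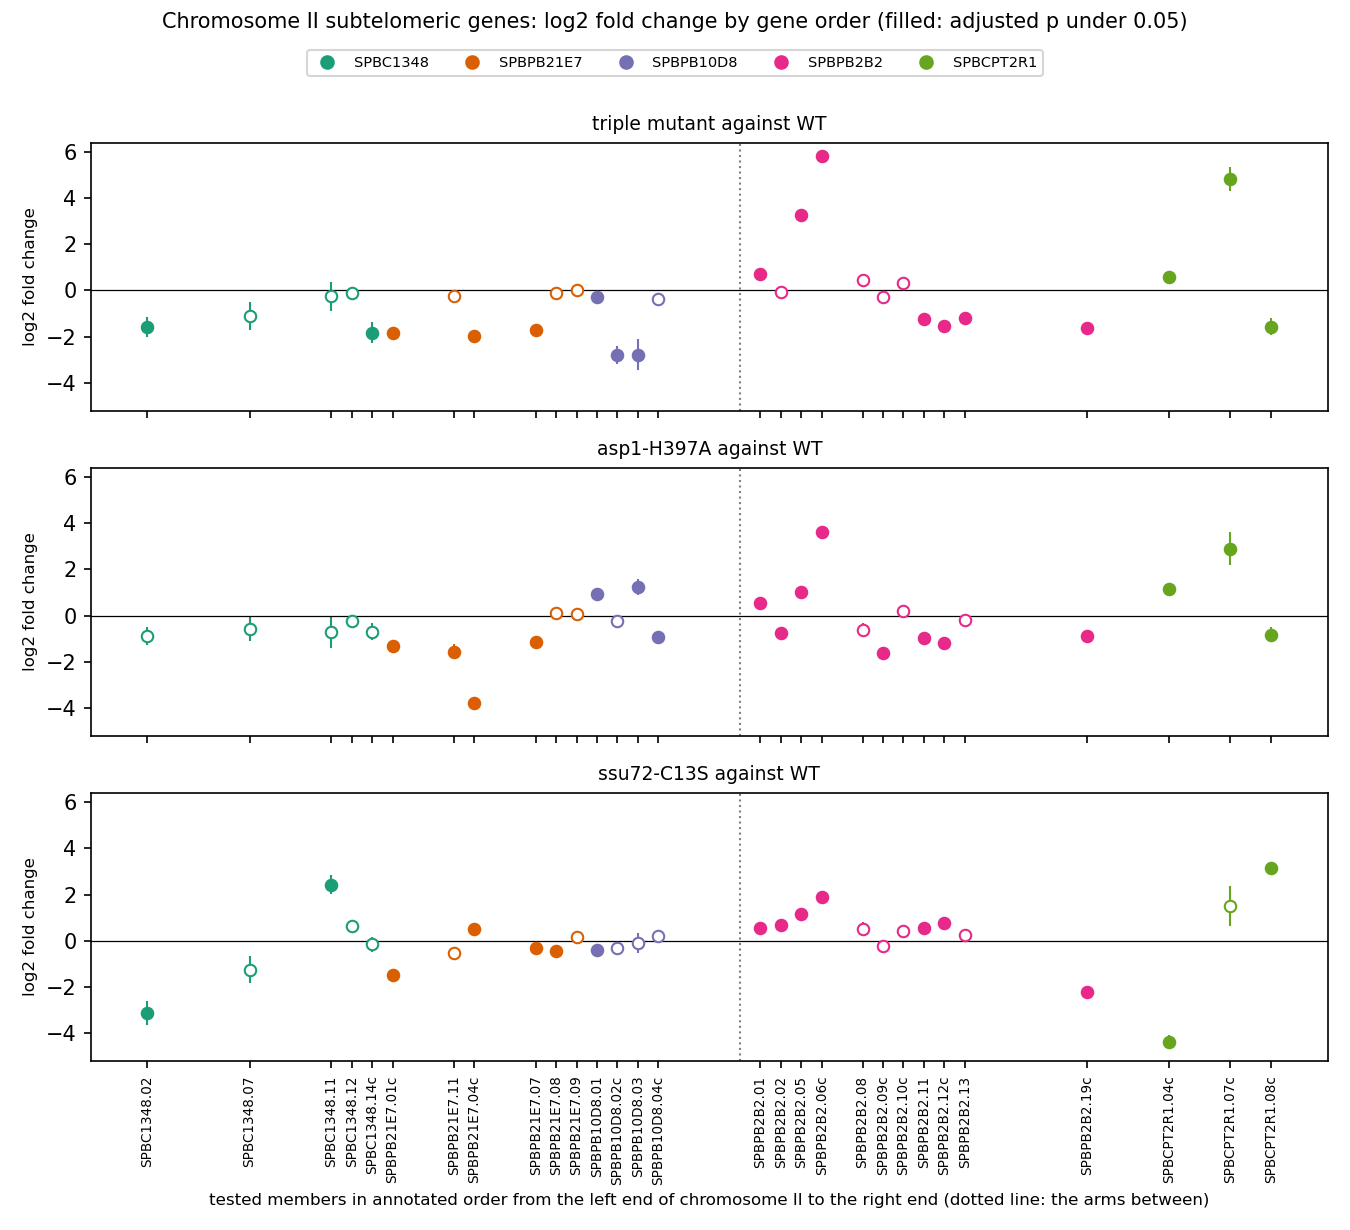
Log2 fold change (y axis) of the 29 tested members in each mutant against WT, in annotated order from the left end of chromosome II to the right end (x axis), with bars of 1 SE; filled points passed the adjusted threshold of 0.05 and colours mark the cosmids. SPBPB2B2.06c and SPBPB2B2.05 stand above their neighbours in the triple mutant, at 5.80 and 3.27. SPBC1348.11 and SPBCPT2R1.07c are shown although each passed the count filter through 1 genotype alone.

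The phosphatase gene SPBPB2B2.06c rose in all 3 mutants, to its highest level in the triple mutant. It was singled out with this rise known, so its tests against WT describe these libraries and are no independent support. It had 658, 735 and 763 CPM in the triple mutant, 165, 157 and 148.5 in asp1-H397A, 49.3, 45.2 and 49.0 in ssu72-C13S, against 11.5, 14.1 and 13.1 in WT. The 4 genotypes did not overlap, and their order was the triple mutant, asp1-H397A, ssu72-C13S and WT, with every library of one above every library of the next. Over WT, the triple mutant was 55.8-fold higher, which is 5.80 (SE 0.0963, adjusted p = 5.74e-14) on the log2 scale. The log2 value was 3.61 (SE 0.0895, adjusted p = 6.23e-12) in asp1-H397A, or 12.2-fold, and 1.89 (SE 0.0874, adjusted p = 1.94e-09) in ssu72-C13S, or 3.72-fold. The triple mutant exceeded asp1-H397A by 2.20 (SE 0.0794, adjusted p = 3.1e-10) and ssu72-C13S by 3.91 (SE 0.0861, adjusted p = 6.35e-13). The departure from additivity came to 0.30 (SE 0.116, adjusted p = 0.0496), which missed the threshold in 14 of 19 alternative fits (adjusted p 0.0038 to 0.197 over all 19).

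The genes of the phosphate regulon did not all move as SPBPB2B2.06c did in these libraries. The log2 fold change of pho1 was 3.4 in the triple mutant, 2.56 in asp1-H397A and -2.50 in ssu72-C13S against WT. That of pho84 was 2.46, 2.123 and -2.26 in the same 3 comparisons, and that of tgp1 was 5.36, 4.39 and -0.64. All 9 of these values passed the threshold. In ssu72-C13S the 3 regulon genes were thus lower than in WT while SPBPB2B2.06c was higher, and these comparisons share the WT libraries.

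SPBPB2B2.05, which encodes a protein of the class I glutamine amidotransferase family, is the neighbour of SPBPB2B2.06c in the table and is transcribed towards it. It had 61.8, 48.3 and 54.8 CPM in the triple mutant, 10.7, 9.57 and 14.4 in asp1-H397A, 14.4, 11.1 and 12.6 in ssu72-C13S, against 5.31, 5.56 and 6.29 in WT. The triple mutant stood above all other libraries, the 2 single mutants overlapped each other, and WT was lowest. Relative to WT the log2 level was higher by 3.27 (SE 0.162, adjusted p = 3.2e-09) in the triple mutant, by 1.02 (SE 0.162, adjusted p = 0.000238) in asp1-H397A and by 1.15 (SE 0.160, adjusted p = 4.45e-05) in ssu72-C13S. The departure from additivity was 1.10 (SE 0.219, adjusted p = 0.00131). On its other side lies nam3, a non-coding RNA gene on the opposite strand that is no member and was looked up after these values were seen. Its log2 fold change was 1.70 (adjusted p = 1.11e-07) in the triple mutant, -1.38 (adjusted p = 5.48e-06) in asp1-H397A and 2.43 (adjusted p = 5.14e-09) in ssu72-C13S. Any relation between nam3 and SPBPB2B2.05 was not tested.

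**Figure D2:**
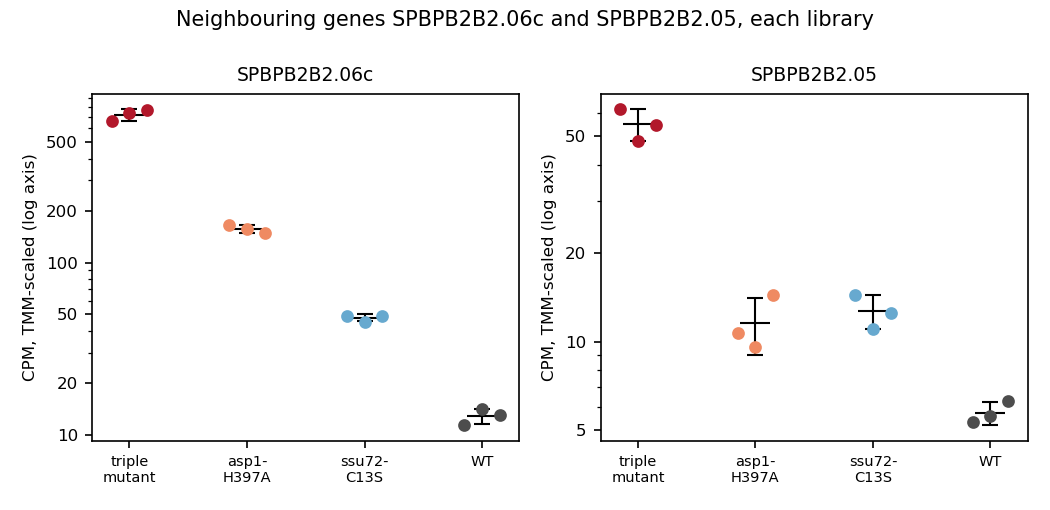
Level of SPBPB2B2.06c and SPBPB2B2.05 in each library (y axis, CPM scaled by TMM, log axis) for the triple mutant, asp1-H397A, ssu72-C13S and WT (x axis), with the mean and SD of 3 libraries. SPBPB2B2.06c falls into 4 separate levels, from 658 to 763 CPM in the triple mutant down to 11.5 to 14.1 CPM in WT.

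Between pho1 and SPBPB2B2.05 lie 2 more members. nrg1 (SPBPB2B2.01), an amino-acid permease gene, rose modestly in every mutant. It averaged 38.2 ± 4.63 CPM in the triple mutant, 34.6 ± 2.35 in asp1-H397A, 34.4 ± 1.60 in ssu72-C13S and 23.3 ± 0.813 in WT (SD, n = 3 each), and its log2 fold change was 0.71 (adjusted p = 3.55e-05) in the triple mutant, 0.57 (adjusted p = 0.000376) in asp1-H397A and 0.56 (adjusted p = 0.000257) in ssu72-C13S. say1 (SPBPB2B2.02), which encodes a sterol deacetylase, moved in opposite directions in the 2 single mutants. It had 5.75, 4.99 and 5.14 CPM in the triple mutant, 3.08, 3.04 and 3.81 in asp1-H397A, 10.4, 8.59 and 7.85 in ssu72-C13S, against 5.43, 5.52 and 5.67 in WT. It fell by 0.74 on the log2 scale (SE 0.139, adjusted p = 0.000817) in asp1-H397A and rose by 0.69 (SE 0.126, adjusted p = 0.000420) in ssu72-C13S, while the triple mutant differed from WT by -0.06 (adjusted p = 0.715).

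The genes of galactose use lie farther out on the same cosmid. gal10 (SPBPB2B2.12c), which encodes a UDP-glucose 4-epimerase and aldose 1-epimerase, fell in the triple mutant and in asp1-H397A and rose in ssu72-C13S. It had 3.63, 2.71 and 2.82 CPM in the triple mutant, 3.03, 2.92 and 5.72 in asp1-H397A, 14.4, 14.3 and 16.7 in ssu72-C13S, against 9.58, 8.48 and 8.34 in WT. The strains with the asp1 allele lay below all WT libraries and ssu72-C13S above all of them. Its log2 fold change was -1.52 (SE 0.215, adjusted p = 5.2e-05) in the triple mutant, -1.17 (SE 0.206, adjusted p = 0.000497) in asp1-H397A and 0.78 (SE 0.186, adjusted p = 0.00302) in ssu72-C13S. The gene tgd1 (SPBPB2B2.11), a nucleotide-sugar 4,6-dehydratase gene, overlaps gal10 on the opposite strand, and without a stated strand setting their reads cannot be told apart. Its log2 fold change was -1.23 (adjusted p = 5.95e-05), -0.98 (adjusted p = 0.000463) and 0.55 (adjusted p = 0.00901) in the same 3 comparisons.

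gal1 (SPBPB2B2.13), the galactokinase gene, had 13.1, 7.71 and 9.94 CPM in the triple mutant, 16.9, 17.8 and 28.0 in asp1-H397A, 28.1, 27.3 and 29.3 in ssu72-C13S, against 21.9, 20.2 and 28.9 in WT. It fell by 1.20 on the log2 scale (SE 0.214, adjusted p = 0.000352) in the triple mutant, where no library reached the WT range. For ssu72-C13S the log2 value was 0.26 (adjusted p = 0.302), which passed with only the compared groups in the fit and without both libraries that stood apart (adjusted p 0.0140 to 0.0259). In asp1-H397A the log2 value was -0.17 (adjusted p = 0.502), and it passed the threshold only without asp1-H397A replicate 3 or without both libraries that stood apart (adjusted p 0.00328 to 0.0342). gal7 (SPBPB2B2.10c), which encodes the galactose-1-phosphate uridylyltransferase, did not pass in any mutant. It averaged 14.5 ± 3.11 CPM in the triple mutant, 13.2 ± 3.31 in asp1-H397A, 15.3 ± 0.702 in ssu72-C13S and 11.5 ± 1.09 in WT (SD, n = 3 each). Its log2 value in ssu72-C13S, 0.42 (adjusted p = 0.0522), passed in 11 of 20 alternative fits. Among them were each fit without 1 library of asp1-H397A or the triple mutant and the fit without both libraries that stood apart (adjusted p 0.00027). For gal7 the triple mutant stood at 0.34 (adjusted p = 0.119) which passed without asp1-H397A replicate 3 or triple mutant replicate 2 (adjusted p 0.0242 to 0.0341). Of the 4 genes of this block, 3 were thus lower in the triple mutant and gal7 was not called. Among these 3, gal10 and tgd1 overlap and may share reads, so they may not count as separate changes. Of all genes tested 25.7% were called lower, and 4 genes are too few to set against that share.

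pan5 (SPBPB2B2.09c), a 2-dehydropantoate 2-reductase gene of the pathway to pantothenate, fell in asp1-H397A. It had 72.5, 50.1 and 52.8 CPM in the triple mutant, 18.6, 17.4 and 33.4 in asp1-H397A, 61.8, 60.7 and 58.1 in ssu72-C13S, against 71.2, 64.6 and 75.0 in WT. The asp1-H397A libraries were the lowest 3 of the 12. On the log2 scale the change was -1.60 (SE 0.205, adjusted p = 3.97e-05) in asp1-H397A, -0.26 (adjusted p = 0.279) in the triple mutant and -0.22 (adjusted p = 0.356) in ssu72-C13S. The triple mutant was higher than asp1-H397A by 1.34 (SE 0.205, adjusted p = 0.000229). Without both libraries that stood apart pan5 was also called lower in the triple mutant, at -0.45 (adjusted p = 4.26e-06), and in ssu72-C13S, at -0.22 (adjusted p = 0.00117). The triple mutant also passed without asp1-H397A replicate 3 alone (adjusted p 0.0479), and ssu72-C13S in a fit of the compared groups only (adjusted p 0.0053). SPBPB2B2.08, a conserved fungal gene, averaged 1.74 ± 0.651 CPM in the triple mutant, 0.844 ± 0.254 in asp1-H397A, 1.87 ± 0.409 in ssu72-C13S and 1.29 ± 0.145 in WT (SD, n = 3 each). It did not pass against WT in any mutant with every library in the fit. It passed in the triple mutant without triple mutant replicate 3 (adjusted p 0.0357), and in ssu72-C13S in a fit of the compared groups only (adjusted p 0.0236).

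The last tested row of the cosmid, SPBPB2B2.19c, is annotated as a protein of the 5Tm family with transmembrane helices, and fell in all 3 mutants. It had 1.14, 1.03 and 1.038 CPM in the triple mutant, 1.91, 1.78 and 1.71 in asp1-H397A, 0.995, 0.652 and 0.432 in ssu72-C13S, against 4.15, 3.20 and 2.41 in WT, and all 9 mutant libraries were below all WT libraries. The log2 fold change was -1.61 (SE 0.248, adjusted p = 0.000109) in the triple mutant, -0.87 (SE 0.224, adjusted p = 0.00664) in asp1-H397A and -2.23 (SE 0.255, adjusted p = 7.86e-06) in ssu72-C13S. Every 100-base window of it occurs elsewhere in the genome, mainly in ftm5 at the left end and in SPAC977.01 at an end of chromosome I, and it overlaps SPBPB2B2.18 on the opposite strand. These copies are described with ftm5.

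At the left end SPBPB21E7 lies between the other cosmids. Of its 6 tested rows, 3 were lower in the triple mutant, 4 were lower in asp1-H397A, and 1 was higher and 3 lower in ssu72-C13S. Of all genes tested 25.7%, 18.6% and 29.1% were called lower in these 3 comparisons and 25.5% higher in the last, and 6 rows are too few to set against such shares. aes1 (SPBPB21E7.07), annotated in the phenazine biosynthesis family, had the most counts of the cosmid and fell in every mutant. It had 50.9, 44.3 and 47.1 CPM in the triple mutant, 65.6, 59.4 and 82.2 in asp1-H397A, 119.9, 129 and 119 in ssu72-C13S, against 155, 145 and 160.4 in WT. The genotypes did not overlap, with WT highest and the triple mutant lowest. Changes on the log2 scale were -1.69 (SE 0.102, adjusted p = 2.07e-08) in the triple mutant, -1.15 (SE 0.10, adjusted p = 1.56e-06) in asp1-H397A and -0.32 (SE 0.0981, adjusted p = 0.0135) in ssu72-C13S. The last of these missed the threshold without WT replicate 3 or ssu72-C13S replicate 3 (adjusted p 0.0501 to 0.0531).

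eno102 (SPBPB21E7.01c), an enolase gene, had 2.11, 1.42 and 1.58 CPM in the triple mutant, 2.43, 2.27 and 2.74 in asp1-H397A, 2.23, 2.03 and 2.34 in ssu72-C13S, against 6.01, 6.02 and 6.56 in WT. All 9 mutant libraries were below the WT range of 6.01 to 6.56 CPM. It fell by 1.85 on the log2 scale (SE 0.150, adjusted p = 3.1e-07) in the triple mutant, and the log2 values of -1.32 in asp1-H397A and -1.49 in ssu72-C13S passed as well (adjusted p = 8.59e-06 and 1.23e-06). The annotated row SPNCRNA.1302 overlaps it on the opposite strand.

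cmt2 (SPBPB21E7.04c), a homolog of human catechol O-methyltransferase, was lowest in asp1-H397A. It had 1.48, 1.89 and 1.14 CPM in the triple mutant, 0.173, 0.487 and 0.596 in asp1-H397A, 8.75, 8.81 and 7.88 in ssu72-C13S, against 6.10, 6.12 and 5.74 in WT. The 4 genotypes did not overlap, in the order ssu72-C13S, WT, triple mutant and asp1-H397A from high to low. Against WT its log2 fold change was -3.80 (SE 0.244, adjusted p = 9.68e-08) in asp1-H397A, -1.98 (SE 0.198, adjusted p = 2.36e-06) in the triple mutant and 0.50 (SE 0.159, adjusted p = 0.0167) in ssu72-C13S. The rise in ssu72-C13S missed the threshold without WT replicate 3 or without ssu72-C13S replicate 1 or 2 (adjusted p 0.0539 to 0.0591). The triple mutant was higher than asp1-H397A by 1.82 (adjusted p = 0.000410). The row SPNCRNA.1304 overlaps cmt2 on the opposite strand.

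The other 3 tested rows were called in at most 1 mutant with every library in the fit. SPBPB21E7.11, an uncharacterised gene that overlaps SPBPB21E7.10 on the opposite strand, fell by 1.56 on the log2 scale (SE 0.321, adjusted p = 0.00153) in asp1-H397A, at 0.238 to 0.324 CPM in asp1-H397A against 0.704 to 0.970 CPM in WT. The pseudogene SPBPB21E7.08 averaged 93.3 ± 14.3 CPM in the triple mutant, 109 ± 18.9 in asp1-H397A, 75.3 ± 3.58 in ssu72-C13S and 101 ± 9.97 in WT (SD, n = 3 each) and fell by 0.43 on the log2 scale (SE 0.124, adjusted p = 0.0104) in ssu72-C13S. The L-asparaginase gene SPBPB21E7.09, of whose 100-base windows 52.6% occur elsewhere in the genome, averaged 28.8 ± 1.65 CPM in the triple mutant, 29.7 ± 0.567 in asp1-H397A, 31.8 ± 2.006 in ssu72-C13S and 28.4 ± 2.50 in WT (SD, n = 3 each), and its log2 values of 0.02 in the triple mutant, 0.07 in asp1-H397A and 0.17 in ssu72-C13S did not pass (adjusted p = 0.844, 0.539 and 0.124). Without both libraries that stood apart, SPBPB21E7.08 was also called lower in the triple mutant, at -0.25 (adjusted p = 0.00322), and SPBPB21E7.09 was called higher in ssu72-C13S, at 0.17 (adjusted p = 0.0355), as it was in a fit of the compared groups only (adjusted p = 0.0184).

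**Figure D3:**
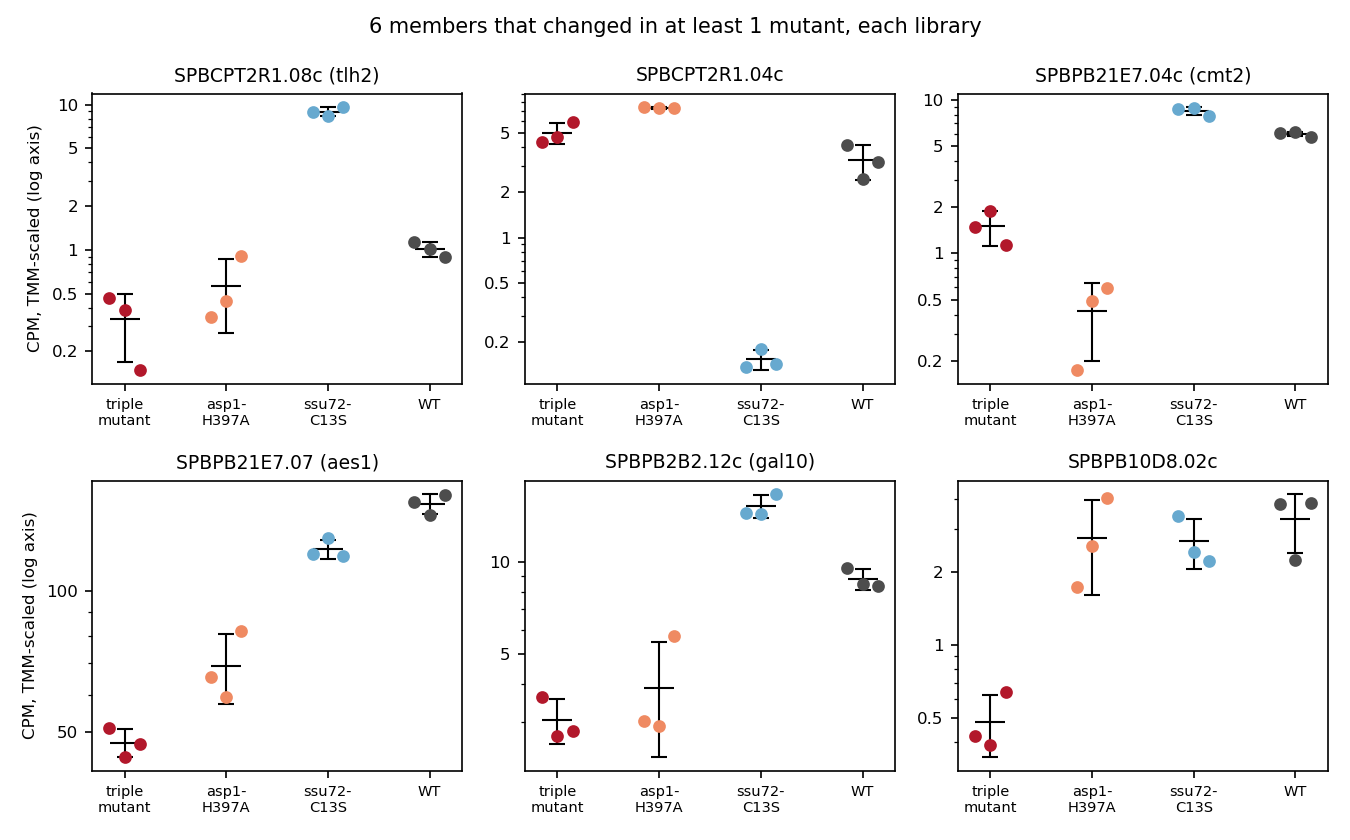
Level of 6 members in each library (y axes, CPM scaled by TMM, log axes) for the triple mutant, asp1-H397A, ssu72-C13S and WT (x axes), with the mean and SD of 3 libraries. tlh2 is highest in ssu72-C13S (8.34 to 9.68 CPM), where SPBCPT2R1.04c is lowest (0.137 to 0.181 CPM), and cmt2 is lowest in asp1-H397A.

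On SPBPB10D8 most counts belonged to SPBPB10D8.01, a cysteine transporter gene, which rose in asp1-H397A. It had 17.7, 17.4 and 17.7 CPM in the triple mutant, 36.4, 41.2 and 45.1 in asp1-H397A, 17.2, 17.6 and 14 in ssu72-C13S, against 22.3, 21 and 20.6 in WT. The asp1-H397A libraries stood above all others, and those of the triple mutant and of ssu72-C13S below WT. Set against WT, the log2 change was 0.94 (SE 0.104, adjusted p = 1.17e-05) in asp1-H397A, -0.27 (SE 0.106, adjusted p = 0.0440) in the triple mutant and -0.39 (SE 0.106, adjusted p = 0.00705) in ssu72-C13S. The value in the triple mutant missed the threshold in 10 of 20 alternative fits (adjusted p 0.0512 to 0.133), among them those without any 1 library of WT or of the triple mutant, without ssu72-C13S replicate 1 or 2, and without asp1-H397A replicate 2.

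SPBPB10D8.02c, an arylsulfatase gene, overlaps SPBPB10D8.01 and SPNCRNA.1307 on the opposite strand. It had 0.423, 0.387 and 0.643 CPM in the triple mutant, 1.73, 2.56 and 4.05 in asp1-H397A, 3.4, 2.43 and 2.23 in ssu72-C13S, against 3.81, 2.25 and 3.84 in WT. The triple mutant was below all other libraries, and the other 3 genotypes overlapped. It fell by 2.78 on the log2 scale (SE 0.388, adjusted p = 4.66e-05) in the triple mutant, while asp1-H397A stood at -0.24 (adjusted p = 0.50) and ssu72-C13S at -0.30 (adjusted p = 0.387) against WT. Without both libraries that stood apart, the value in asp1-H397A was -0.62 and passed (adjusted p 0.0383).

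The transporter pseudogene SPBPB10D8.03 had 0, 0.0430 and 0.198 CPM in the triple mutant, 1.34, 1.22 and 1.35 in asp1-H397A, 0.515, 0.544 and 0.468 in ssu72-C13S, against 0.244, 0.704 and 0.737 in WT. It rose by 1.25 (SE 0.355, adjusted p = 0.0114) in asp1-H397A, a call that was lost without WT replicate 1 (adjusted p 0.0530). Only 5 counts were assigned to it in the 3 triple mutant libraries together, against 47 in those of WT. The ratio of these counts after scaling, triple mutant over WT, was 0.138 (95% interval 0.0428 to 0.345, counting error only), and the fitted value, -2.79 (adjusted p = 0.00327), was -4.38 without triple mutant replicate 3. SPBPB10D8.04c, the 1 tested copy of the tandem transporters, had 0.803, 1.81 and 1.09 CPM in the triple mutant, 0.780, 1.01 and 0.715 in asp1-H397A, 1.96, 1.81 and 1.73 in ssu72-C13S, against 1.86, 1.44 and 1.47 in WT. It fell by 0.93 on the log2 scale (SE 0.266, adjusted p = 0.0117) in asp1-H397A, a call lost without WT replicate 1 (adjusted p 0.0564). In the triple mutant it passed only without triple mutant replicate 2 (adjusted p 0.0241).

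SPBC1348, the outermost cosmid of the left end, was low throughout. Its row with the most counts, SPBC1348.12, a DNA-binding transcription factor gene, had 6.21, 3.57 and 5.44 CPM in the triple mutant, 3.94, 3.24 and 6.67 in asp1-H397A, 10.1, 7.47 and 7.56 in ssu72-C13S, against 6.07, 3.83 and 6.44 in WT. The triple mutant and asp1-H397A overlapped WT, and ssu72-C13S stood above WT. Its log2 value in ssu72-C13S, 0.62 (adjusted p = 0.0581), missed the threshold, but passed in 11 of 20 alternative fits (adjusted p 0.00208 to 0.0433). Among them were each fit without 1 library of asp1-H397A or the triple mutant and the fit without both libraries that stood apart (adjusted p 0.00372). In the other strains the log2 value was -0.10 (adjusted p = 0.776) in the triple mutant and -0.23 (adjusted p = 0.504) in asp1-H397A. The second of these passed without both libraries that stood apart (adjusted p 0.0239).

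The transporter pseudogene SPBC1348.11 passed the count filter through ssu72-C13S alone, where it was highest, so its difference is given here without a test. It is still counted above among the members called higher in ssu72-C13S against WT. It had 0.169, 0.172 and 0.0495 CPM in the triple mutant, 0.130, 0.122 and 0.0397 in asp1-H397A, 0.755, 0.689 and 1.22 in ssu72-C13S, against 0.0915, 0.176 and 0.233 in WT, and its log2 value in ssu72-C13S was 2.43 (SE 0.408). ght7 (SPBC1348.14c), a hexose transporter gene, had 0.211, 0.129 and 0.198 CPM in the triple mutant, 0.477, 0.162 and 0.556 in asp1-H397A, 0.583, 0.689 and 0.468 in ssu72-C13S, against 0.518, 0.668 and 0.776 in WT. It fell by 1.83 on the log2 scale (SE 0.441, adjusted p = 0.00344) in the triple mutant, and the value of -0.69 (adjusted p = 0.134) in asp1-H397A passed without asp1-H397A replicate 3 (adjusted p 0.0415 to 0.0449 in the 2 fits without that library). SPBC1348.07, of the DUF999 family of fission yeast proteins and with 81.9% of its 100-base windows repeated elsewhere, did not pass in any mutant, at -1.10 (adjusted p = 0.144) in the triple mutant, -0.56 (adjusted p = 0.413) in asp1-H397A and -1.25 (adjusted p = 0.0827) in ssu72-C13S. Without WT replicate 1 its values in the triple mutant and in ssu72-C13S passed (adjusted p 0.0289 and 0.0153), and that in ssu72-C13S also without both libraries that stood apart (adjusted p 0.0441).

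ftm5 (SPBC1348.02), a gene for a protein with transmembrane helices, had 0.254, 0.215 and 0.297 CPM in the triple mutant, 0.520, 0.406 and 0.318 in asp1-H397A, 0.206, 0 and 0.0360 in ssu72-C13S, against 0.701, 0.809 and 0.776 in WT. All mutant libraries were below all WT libraries. The count filter was reached in 3 libraries of WT, where ftm5 was highest, in 1 of asp1-H397A and in 0 of ssu72-C13S and of the triple mutant. Its tests against WT therefore describe these libraries and are no independent support. ftm5 fell by 1.57 on the log2 scale (SE 0.429, adjusted p = 0.00764) in the triple mutant and by 3.13 (SE 0.512, adjusted p = 0.000179) in ssu72-C13S, where 7 counts were assigned in all 3 libraries, a value which came to -5.06 once ssu72-C13S replicate 1 was left out. In asp1-H397A it stood at -0.88 (adjusted p = 0.0752), which passed in 4 alternative fits, 2 of them without ssu72-C13S replicate 1 or 2. Every 100-base window of ftm5 occurs elsewhere. Its near copies were read in the same libraries, SPBPB2B2.19c at 0.693 ± 0.284 CPM in ssu72-C13S and 3.25 ± 0.872 CPM in WT, and SPAC977.01 at 0.201 ± 0.184 CPM in ssu72-C13S and 0.714 ± 0.151 CPM in WT (SD, n = 3 each). The counting could move reads between these rows, so each of their values is uncertain.

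SPBCPT2R1 is the outermost cosmid of the right end and ends with tlh2. That gene (SPBCPT2R1.08c), of the RecQ-type helicases, rose in ssu72-C13S and fell in the triple mutant. It had 0.465, 0.387 and 0.148 CPM in the triple mutant, 0.347, 0.446 and 0.913 in asp1-H397A, 8.89, 8.34 and 9.68 in ssu72-C13S, against 1.13, 1.02 and 0.892 in WT. The ssu72-C13S libraries stood above all others, and those of the triple mutant below WT. The log2 fold change was -1.56 (SE 0.362, adjusted p = 0.00259) in the triple mutant and 3.13 (SE 0.215, adjusted p = 7.08e-08) in ssu72-C13S. In asp1-H397A it was -0.82 (SE 0.317, adjusted p = 0.0494), which missed the threshold in 11 of 20 alternative fits (adjusted p 0.0504 to 0.166), among them those without any 1 library of WT or ssu72-C13S and without asp1-H397A replicate 1 or 2, and which was -1.35 without asp1-H397A replicate 3. The triple mutant minus ssu72-C13S came to -4.69 (SE 0.273, adjusted p = 8.38e-09). Of the 100-base windows of tlh2, 92.3% occur elsewhere, mainly in tlh1 (SPAC212.11) on chromosome I. tlh1 averaged 0.133 ± 0.0717 CPM in the triple mutant, 0.269 ± 0.248 in asp1-H397A, 5.91 ± 0.442 in ssu72-C13S and 0.692 ± 0.164 in WT (SD, n = 3 each). Reads of the 2 genes cannot be told apart over the shared part.

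SPBCPT2R1.04c, a gene of the DUF999 family, was lowest in ssu72-C13S, where tlh2 was highest. It had 4.35, 4.69 and 5.88 CPM in the triple mutant, 7.45, 7.26 and 7.31 in asp1-H397A, 0.137, 0.181 and 0.144 in ssu72-C13S, against 4.15, 2.46 and 3.18 in WT. The asp1-H397A libraries were highest, and ssu72-C13S was below all others, with 13 counts in its 3 libraries against 288 in those of WT. The log2 fold change was -4.37 (SE 0.296, adjusted p = 6.5e-08) in ssu72-C13S, 1.16 (SE 0.166, adjusted p = 9.84e-05) in asp1-H397A and 0.59 (SE 0.172, adjusted p = 0.0106) in the triple mutant. Over WT, the ratio of scaled counts in ssu72-C13S was 0.0465 (95% interval 0.0244 to 0.0807, counting error only). Of its windows 78.8% occur elsewhere, in SPAC212.01c, SPBC1348.01, SPBCPT2R1.01c and SPAC750.06c, which averaged at most 0.302 CPM in any genotype.

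The malic enzyme pseudogene SPBCPT2R1.07c passed the count filter through the triple mutant alone, where it was highest, so its differences are given here without a test. It is still counted above among the members called higher in the triple mutant and in asp1-H397A against WT. It had 0.761, 1.51 and 1.09 CPM in the triple mutant, 0.347, 0.203 and 0.318 in asp1-H397A, 0.103, 0.109 and 0.108 in ssu72-C13S, against 0.0305, 0 and 0.0776 in WT. The triple mutant stood above asp1-H397A, and asp1-H397A above ssu72-C13S and WT. In ssu72-C13S the pseudogene had 3 counts in each library, against 0 to 2 in those of WT. Levels in both genotypes were at or under the limit of a 0 count given above, so their order is not resolved. Its 3 WT libraries held 3 counts in all, against 75 in the triple mutant and 21 in asp1-H397A. The ratio of scaled counts was 32.4 (95% interval 10.7 to 161) for the triple mutant over WT and 8.35 (2.49 to 43.7) for asp1-H397A over WT, for counting error only. The fitted log2 values were 4.84 (SE 0.5335) in the triple mutant, 2.90 (SE 0.7157) in asp1-H397A and 1.5 (SE 0.8665) in ssu72-C13S. Of its windows 94.1% occur elsewhere, and its copy SPAC212.09c averaged 0.982 ± 0.0818 CPM in the triple mutant, 0.264 ± 0.116 in asp1-H397A, 0.0350 ± 0.0343 in ssu72-C13S and 0.0555 ± 0.0530 in WT (SD, n = 3 each).

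The 28 members that were not tested lie mostly in the repeated stretches. 8 had 0 counts in all 12 libraries, which allows at most the 0.0915 to 0.148 CPM given above in each. These are SPBC1348.15, SPBC1348.09, SPBPB21E7.05, SPBPB10D8.05c, SPBPB10D8.06c, SPBPB2B2.16c, SPBCPT2R1.05c and SPBCPT2R1.10. Another 11 never exceeded 3 counts in a library: SPBC1348.01, SPBC1348.03 (ftm6), SPBC1348.04, SPBC1348.06c, SPBC1348.10c, SPBPB21E7.02c, SPBPB21E7.06, SPBPB2B2.17c (ftm7), SPBCPT2R1.02, SPBCPT2R1.03 and SPBCPT2R1.06c. The remaining 9 had more than 3 counts in at least 1 library, and at most 25, in SPBPB2B2.18. They are SPBC1348.05, SPBC1348.08c, SPBPB21E7.10, SPBPB10D8.07c, SPBPB2B2.07c, SPBPB2B2.14c, SPBPB2B2.15, SPBPB2B2.18 and SPBCPT2R1.01c.

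Repeats were counted as the share of a gene's 100-base windows that occur anywhere else in ASM294v3. 25 members had no such window, and their median total over the 12 libraries was 1837 counts, with 21 tested and 1 at 0. 10 members had some but under 90%, with a median total of 31.5 counts, 4 tested and 1 at 0. 22 members had 90% or more, with a median total of 11 counts, 4 tested and 6 at 0. At the left end the 11 outermost members, and at the right end the 15 outermost, all held repeated windows. In repeated sequence a low count cannot be told apart from reads that were left unassigned, because how the authors treated reads with several matches is not given in the sources used here.

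**Figure D4:**
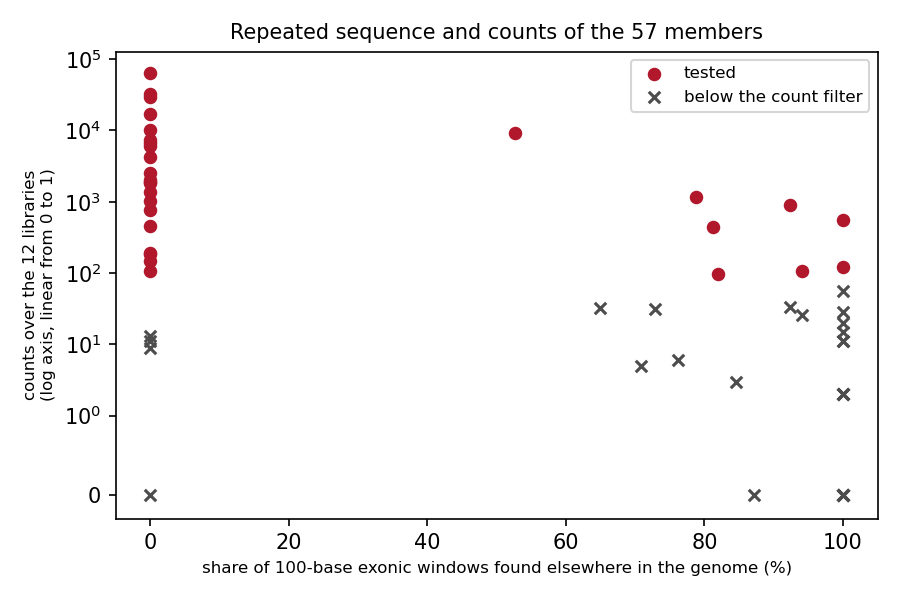
Total counts of each member over the 12 libraries (y axis) against the share of its 100-base windows that occur elsewhere in the genome (x axis, percent). The 2 tested members at 100%, ftm5 and SPBPB2B2.19c, hold 120 and 551 counts, while the 21 tested members with no repeated window include the highest, SPBPB2B2.06c.

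The summed level of each cosmid, given without a test, rested on few rows. The 17 rows of SPBPB2B2 summed to 909.9 ± 38.5 CPM in the triple mutant, 274 ± 19.9 in asp1-H397A, 236 ± 7.19 in ssu72-C13S and 174 ± 10.3 in WT (SD, n = 3 each). SPBPB2B2.06c made up 79.0% of this sum in the triple mutant and 7.41% in WT, and without it the sums were 190.9 ± 23 CPM in the triple mutant, 118 ± 26.2 in asp1-H397A, 188 ± 5.89 in ssu72-C13S and 161 ± 10.7 in WT. SPBPB21E7 summed to 174 ± 18.5 CPM in the triple mutant, 211 ± 31 in asp1-H397A, 241 ± 10.8 in ssu72-C13S and 296 ± 19.3 in WT (SD, n = 3 each), and aes1 was 27.3% of it in the triple mutant and 51.8% in WT. The 7 rows of SPBPB10D8 came to 19.5 ± 0.445 CPM in the triple mutant, 45.9 ± 5.46 in asp1-H397A, 21.3 ± 2.48 in ssu72-C13S and 26.8 ± 1.39 in WT (SD, n = 3 each), of which SPBPB10D8.01 was 79.4% in WT. For SPBC1348 the sums were 6.02 ± 1.45 CPM in the triple mutant, 6.26 ± 1.89 in asp1-H397A, 10.4 ± 1.47 in ssu72-C13S and 7.82 ± 1.32 in WT (SD, n = 3 each), of which SPBC1348.12 was 69.7% in WT. SPBCPT2R1 reached 6.52 ± 0.762 CPM in the triple mutant, 8.35 ± 0.385 in asp1-H397A, 9.26 ± 0.638 in ssu72-C13S and 4.52 ± 1.02 in WT (SD, n = 3 each). Each mutant had both higher and lower rows at the right end.

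**Figure D5:**
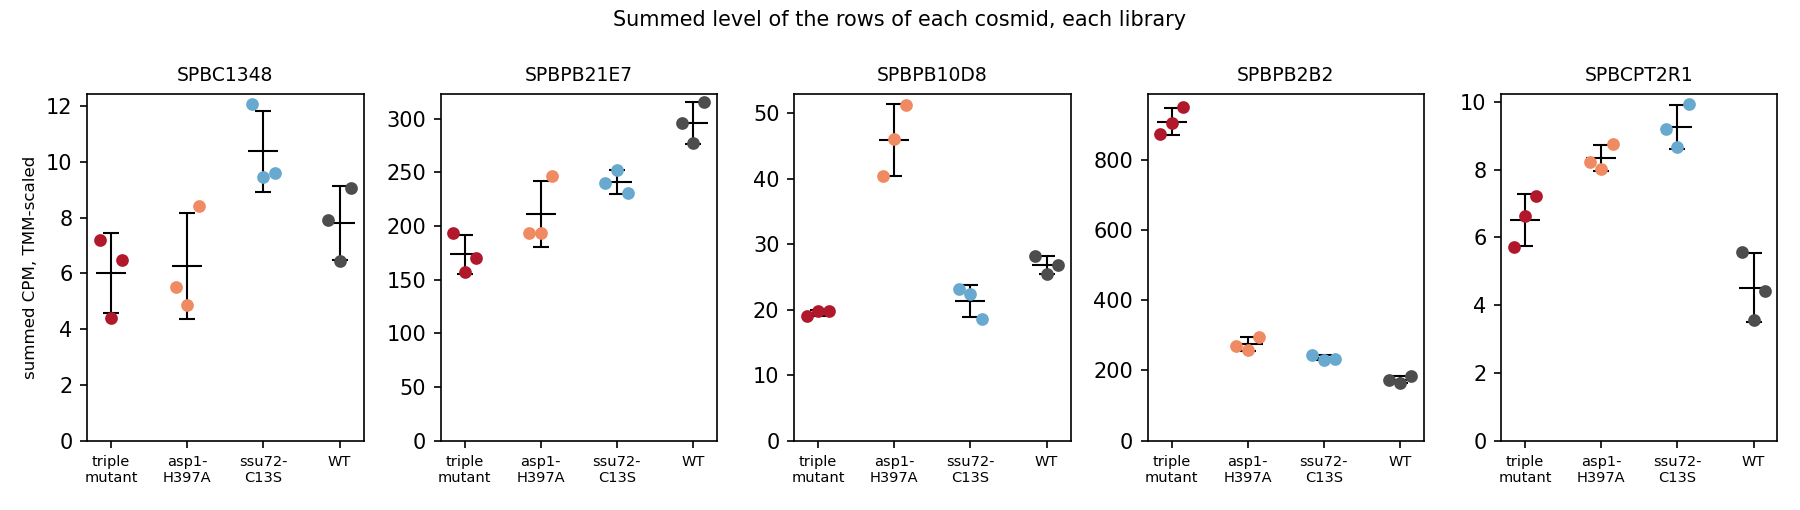
Summed level of each cosmid in each library (y axes, CPM scaled by TMM, from 0) for the triple mutant, asp1-H397A, ssu72-C13S and WT (x axes). Points are libraries, dashes are means and error bars SD of 3 libraries. SPBPB2B2 is highest in the triple mutant, at 874 to 950.5 CPM, and SPBPB21E7 is highest in WT, at 277 to 316 CPM.

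A list of 23 genes for the chromatin and telomere factors of subtelomeres, all tested, held called changes of at most 0.66 in size on the log2 scale. In the triple mutant 4 were higher and 3 lower, in asp1-H397A 7 and 1, and in ssu72-C13S 2 and 3, which is 30.4%, 34.8% and 21.7% of the list. With every library in the fit these shares were below the 51.9%, 44.4% and 54.7% of all genes tested, which did not hold in every alternative fit. clr4, the histone H3 methyltransferase gene, was higher in all 3, with log2 fold changes of 0.61 in the triple mutant, 0.66 in asp1-H397A and 0.36 in ssu72-C13S. In the triple mutant epe1, a gene for a protein that opposes the spread of heterochromatin, was higher by 0.31, while mit1, a chromatin remodeller gene, and ago1, the Argonaute gene, stood at -0.45 and -0.38. In asp1-H397A ccq1, for a telomere protein, was higher by 0.29, or by 0.15 and not called under upper-quartile scaling (adjusted p = 0.119), and rap1, for another, stood at -0.44 (-0.68 without asp1-H397A replicate 3), a call lost without any 1 library of WT or ssu72-C13S or without asp1-H397A replicate 1 or 2. In ssu72-C13S fft3, another remodeller gene, was higher by 0.21, and clr1, for a subunit of a histone deacetylase complex, and set2, for a histone methyltransferase, stood at -0.32 and -0.25. Both of these calls were lost without WT replicate 3 or ssu72-C13S replicate 3, and that of set2 also without ssu72-C13S replicate 1. The number called rose to 13 in the triple mutant, 19 in asp1-H397A and 10 in ssu72-C13S when asp1-H397A replicate 3 was left out, with 60.5%, 64.4% and 63.3% of all genes called then. In asp1-H397A the list's share was then above that of all genes, so the lower share there depended on that library. Without both libraries that stood apart 17, 20 and 13 were called, beside 70.4%, 73.2% and 72.6% of all genes. Only the share in ssu72-C13S was then below that of all genes. The number called fell to 5 in asp1-H397A without WT replicate 1 or 3 or asp1-H397A replicate 2, to 3 without asp1-H397A replicate 1, and to 3 in ssu72-C13S without WT replicate 3 or ssu72-C13S replicate 1 or 3.

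Of 66 rows from the subtelomeres of chromosome I, 41 were tested. In the triple mutant 11 were higher and 18 lower than in WT, in asp1-H397A 13 and 8, and in ssu72-C13S 13 and 15, which is 70.7%, 51.2% and 68.3% of those tested, beside 51.9%, 44.4% and 54.7% of all genes tested. Their median log2 fold change was -0.236 in the triple mutant, 0.172 in asp1-H397A and -0.214 in ssu72-C13S, against -0.275, -0.625 and 0.193 for the members of chromosome II. The 2 sets share repeated sequence, and the difference between them was not tested.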

How the data were processed

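Poly(A)+ RNA of 12 cultures, 3 of each of 4 genotypes, was extracted with hot acid phenol and made into libraries with a stranded kit for paired-end sequencing on a HiSeq instrument, per the labels' protocols. Raw counts of every gene in every library were deposited by the authors, with replicates kept apart. HISAT2 2.1.0, SAMtools, HTSeq 0.10.0, DESeq2 and genome build ASM294v2 are named in the submitters' processing notes. The annotation, the handling of reads with several matches and the strand setting of the counting are not given in the sources used here. Reads of overlapping genes on opposite strands may therefore be mixed, which touches the 40 members that overlap an annotated gene on the opposite strand, 12 of which overlap another row of the table.

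Each column was matched to its sample by title. The table held 6987 rows, of which 1 repeated identifier with 0 counts was dropped. Genes were kept with edgeR 4.0.16 filterByExpr (minimum count 10), which left 6189, and libraries were scaled by TMM. All libraries entered 1 quasi-likelihood fit (glmQLFit, legacy option, R 4.3.3) with a coefficient per genotype, and Benjamini-Hochberg adjustment ran over these 6189 genes. Standard errors (SE) were derived from each log2 fold change and the F statistic of its test. Other settings tried were upper-quartile, RLE and library-total scaling, DESeq2 1.42.0, other filters on low counts, fits of the compared groups alone, a replicate block and leaving out libraries. The functions were tested on simulated data. Within genotypes the correlation of log2 CPM was 0.992 to 0.998, and no pair of libraries differed by as little as sampling noise.

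The members and lists were chosen with earlier results of these data known. Members described in full are SPBPB2B2.06c, the row of each cosmid with the most counts and, for each mutant, up to 10 members with an adjusted p under 0.05, an absolute log2 fold change of at least 1 and a mean of at least 1 CPM. The other tested members were added so that all 29 are accounted for. RefSeq ASM294v3 is not the build of the processing notes, so it was used by identifier, for names, order, overlap, repeats and sequences, and no coordinates are given.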

Additional observations from a re-analysis of the deposited data

Results flagged for a closer look

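The response of 17 of the 29 tested members to the alleles in combination differed from the sum of the single mutants, 9 above it and 8 below, or 58.6% of those tested against 41.9% of all genes. Without the 2 libraries that stood apart it was 62.1% against 60.4% of all genes, so the members' share was then near that of all genes. The value is the log2 fold change of the triple mutant against WT less those of the 2 single mutants, tested as a contrast with edgeR's quasi-likelihood test and Benjamini-Hochberg adjustment. The triple mutant is also labelled aps1∆, so the contrast holds any effect of that allele, which cannot be told apart here.

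Among the galactose genes the triple mutant lay below the sum for gal10, at -1.13 (adjusted p = 0.00774), which was -0.74 without asp1-H397A replicate 3, and for gal1, at -1.29 (adjusted p = 0.00336). The value of gal7, -0.28 (adjusted p = 0.373), was not called. tgd1, which overlaps gal10 on the opposite strand, stood at -0.79 (adjusted p = 0.0185). The pantothenate gene pan5 lay above the sum by 1.56 (adjusted p = 0.000663), and among the other genes of the same cosmid SPBPB2B2.05 did so by 1.10 (adjusted p = 0.00131), SPBPB2B2.19c by 1.48 (adjusted p = 0.00740) and SPBPB2B2.06c by 0.30 (adjusted p = 0.0496). The call of SPBPB2B2.06c was lost in 14 of 19 alternative fits (adjusted p 0.0533 to 0.197). The permease gene nrg1 stood at -0.42 (adjusted p = 0.0242), a call lost without WT replicate 1 or 3, ssu72-C13S replicate 1 or triple mutant replicate 1 (adjusted p 0.0511 to 0.0658).

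At the left end cmt2 had 1.32 (adjusted p = 0.00754), eno102 0.95 (adjusted p = 0.00349) and SPBPB21E7.11 1.83 (adjusted p = 0.00442), all above the sum. On SPBPB10D8 the 3 called values were below it, -0.83 (adjusted p = 0.000620) for the cysteine transporter gene SPBPB10D8.01, -2.24 (adjusted p = 0.00284) for the arylsulfatase gene SPBPB10D8.02c and -3.94 (adjusted p = 0.00102) for the pseudogene SPBPB10D8.03. ftm5, which passed the count filter mainly through WT, stood at 2.44 (adjusted p = 0.0224), a call lost without ssu72-C13S replicate 3 or triple mutant replicate 3 (adjusted p 0.0510 to 0.0608), and at 4.37 without ssu72-C13S replicate 1. At the right telomere tlh2 had -3.87 (adjusted p = 3.02e-05) and SPBCPT2R1.04c 3.81 (adjusted p = 3.5e-06). For both of these rows ssu72-C13S alone differed most from WT, at 3.13 and -4.37, while the triple mutant stood at -1.56 and 0.59.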

How the results depend on the processing

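The number of called members stayed within 1.5 times its value in every alternative, at 13 to 20 in the triple mutant, 13 to 22 in asp1-H397A and 13 to 22 in ssu72-C13S against WT, 11 to 16 and 12 to 21 for the triple mutant against asp1-H397A and against ssu72-C13S, and 13 to 18 for the departure from additivity. Of 4003 alternative values for single genes, 3784 kept direction and side of the threshold, 112 lost a call, 68 gained one and 39 changed sign. For SPBPB2B2.06c against WT the log2 value ranged over 5.72 to 5.88 in the triple mutant, 3.46 to 3.68 in asp1-H397A and 1.81 to 1.97 in ssu72-C13S. Its departure from additivity missed the threshold at 0.30 under RLE scaling (adjusted p = 0.0960), DESeq2 (0.0892), no filter (0.0533) and the replicate block (0.0734), and in 10 of the fits without 1 library, which ranged over 0.23 to 0.38. Upper-quartile scaling moved the median of all genes by -0.145 in asp1-H397A, and the share of higher among all called genes to 40.4% in the triple mutant (main 50.4%), 32.2% in asp1-H397A (58.1%), 58.6% for the triple mutant against asp1-H397A (42.7%) and 40.1% against ssu72-C13S (51.2%). Scaling by library total moved that median by -0.309 in the triple mutant and -0.223 in asp1-H397A. The cause of these changes was not tested.

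The replicate numbers did not pair the samples: same-numbered libraries had correlations of their deviations from -0.430 to 0.321, 5 of 18 over 0.1. Other pairs ran from -0.505 to 0.638, with 8 of 36 over 0.1. The highest value was that of asp1-H397A replicate 3 with triple mutant replicate 1. The 2 libraries that stood apart thus deviated from their genotypes in a like way, and the reason was not tested. With the replicate block 17, 17 and 18 members passed in the triple mutant, asp1-H397A and ssu72-C13S against WT, and 16 in each other comparison.

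Values that changed sign had not passed the threshold in either fit. With 1 library left out, the triple mutant against WT ranged over -0.30 to 0.11 for SPBC1348.12, -0.58 to 0.093 for SPBC1348.11, -0.44 to 0.016 for SPBPB21E7.11 and -0.032 to 0.093 for SPBPB21E7.09, asp1-H397A against WT over -0.044 to 0.18 for SPBPB21E7.08 and -0.025 to 0.31 for gal7 (SPBPB2B2.10c), and ssu72-C13S against WT over -0.50 to 0.14 for SPBPB10D8.03. The triple mutant against asp1-H397A ranged over -0.52 to 0.043 for gal10 (SPBPB2B2.12c), -0.071 to 0.50 for SPBC1348.12, -0.071 to 0.0092 for SPBPB21E7.09 and -0.050 to 0.36 for gal7. Against ssu72-C13S it ranged over -0.23 to 0.039 for pan5 (SPBPB2B2.09c), -0.43 to 0.66 for SPBC1348.07, -0.36 to 0.15 for SPBPB2B2.08 and -0.27 to 0.030 for gal7. The departure ranged over -0.46 to 0.95 for SPBCPT2R1.07c, -0.049 to 0.61 for SPBPB10D8.04c and -0.10 to 0.11 for say1 (SPBPB2B2.02). Without both libraries that stood apart, SPBC1348.07 gave 0.14 and SPBC1348.11 -0.12 for the triple mutant against asp1-H397A, SPBPB21E7.08 -0.044 and gal7 -0.024 for asp1-H397A against WT, and say1 0.033 for the departure. Upper-quartile scaling gave -0.048 in the triple mutant, -0.076 in asp1-H397A and 0.028 between these strains for SPBPB21E7.09, -0.037 in asp1-H397A for SPBPB21E7.08 and 0.038 for the departure of say1, and a mean count of 50 or more gave -0.0033 in the triple mutant for SPBPB21E7.09.

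Without the row with the most counts, log2 ratios of summed levels moved by over 1 SD in 12 of 15 cases: SPBC1348 to -1.33 in the triple mutant and -0.23 in ssu72-C13S, SPBPB21E7 to -0.18 in the triple mutant and -0.0085 in asp1-H397A, SPBPB10D8 to -1.55 in the triple mutant, -0.16 in asp1-H397A and -0.13 in ssu72-C13S, SPBPB2B2 to 0.25, -0.45 and 0.23 in the 3 mutants, and SPBCPT2R1 to -0.32 in asp1-H397A and 2.86 in ssu72-C13S. By library total they were -1.08 for SPBPB21E7, -0.77 for SPBPB10D8 and 2.08 for SPBPB2B2 in the triple mutant, and 0.55 for SPBPB10D8 and 0.44 for SPBPB2B2 in asp1-H397A. Sums over rows without repeats, an alternative chosen after seeing the data, moved by less than 1 SD where they could be formed. The number of called chromatin and telomere factors ranged over 5 to 17 in the triple mutant, 3 to 20 in asp1-H397A and 3 to 14 in ssu72-C13S, and of chromosome I rows to 16 in the triple mutant and in ssu72-C13S with a mean count of 50 or more. Levels under 0.0915 to 0.148 CPM, by library, are beyond this depth.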
